A study of Mus musculus with 2 samples.

Results

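The cells described here were 62 myeloid cells with an interferon response, found among 7418 cells kept from B16F10 melanoma tumours, of which 2805 were myeloid. A cell was kept when it had 200 to 5000 detected genes and at most 7.5% of its unique molecular identifiers (UMIs, each standing for one captured transcript) in mitochondrial genes. It was called myeloid when the melanoma pigment genes Pmel, Dct, Mlana and Tyrp1 together made under 0.5% of its UMIs and Tyrobp or Fcer1g, which encode signalling adaptors of myeloid receptors, had a UMI. A myeloid cell entered the group when at least 4 of the 8 genes Ifit1, Rsad2, Ifit3, Isg15, Cxcl10, Slfn4, Irf7 and Gbp2 had a UMI, when it had no UMI of Arg1, and when at most 2 of the 6 resident-macrophage genes Cd209f, Lyve1, Fcna, Ccl8, Cd163 and Cbr2 were seen. The rule thus read transcripts of the same cells that are described, so every value that follows for the selecting genes is a description. The library from Atf4 WT/WT hosts held 33 such cells of 1644 myeloid cells and the library from Atf4 Δ/Δ hosts held 29 of 1161.

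B16F10 is a melanoma line of C57BL/6 origin, and the tumours were collected while small. Hosts of both groups carried Rosa26::CreER T2, a tamoxifen-dependent Cre recombinase expressed from the broadly active Rosa26 locus, and both were given tamoxifen. In the Atf4 Δ/Δ group the loxP-flanked Atf4 alleles were thereby targeted for deletion throughout the host, while the Atf4 WT/WT group had no floxed allele. The study describes this deletion as efficient but incomplete. The mice were 11 weeks old, labelled as of both sexes, on a C57BL/6 background, and 2 tumours were pooled for each library. The grafted B16F10 cells kept their own Atf4 in both groups. Each genotype was 1 library, and no test between genotypes was possible. Intervals are 95% intervals and cover counting error only, and pooled animals cannot be told apart in them.

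Interferons are cytokines that cells release after sensing foreign or misplaced nucleic acid. Type I interferons bind the IFNAR1 and IFNAR2 receptor chains and act through JAK kinases on a complex of STAT proteins and IRF9, which binds a promoter element termed ISRE. Interferon gamma acts through its own receptor, and its target promoters hold an element termed GAS. The genes induced include inhibitors of viral replication, sensors of viral RNA and DNA, GTPases, chemokines that attract lymphocytes, antigen presentation genes and brakes on the pathway. In tumours such genes are known from macrophages and monocytes near dying cells or activated lymphocytes.

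The libraries held 6304 barcodes (Atf4 WT/WT) and 5474 barcodes (Atf4 Δ/Δ), none with under 500 UMIs. Of these, 10 barcode sequences occurred in both libraries, and none belonged to the 62 cells. Atf4 itself, the deleted gene, gave 24 UMIs in the Atf4 WT/WT cells (211 counts scaled to 1000000 UMIs, CPM) and 1 UMI in the Atf4 Δ/Δ cells (17.7 CPM), a log2 ratio of -3.58 (interval -8.94 to -0.96). In the other myeloid cells it stood at 191 and 81.5 CPM, a log2 ratio of -1.23. The female transcript Xist was seen in 24 of the 33 Atf4 WT/WT cells but in 2 of the 29 Atf4 Δ/Δ cells. A Y-linked UMI was seen in 0 and 1 of these cells. Of the 1611 other myeloid cells of the Atf4 WT/WT library, 1020 had Xist and 0 had a Y-linked UMI. Of the 1132 in the Atf4 Δ/Δ library, 116 had Xist and 157 had a Y-linked UMI. Both libraries were labelled as pooled male and female, but no myeloid cell of the Atf4 WT/WT library had a Y-linked UMI, which goes against that label. Sex and genotype cannot be told apart between the 2 libraries.

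The selected cells differed in depth, with a median of 2625 UMIs (658 to 19309) in the Atf4 WT/WT library and 1657 UMIs (605 to 5341) in the Atf4 Δ/Δ library. Other myeloid cells had medians of 1718 and 1751 UMIs. The Atf4 WT/WT cells summed to 113625 UMIs and the Atf4 Δ/Δ cells to 56584 UMIs. In the Atf4 WT/WT library selected cells made 1.26% of the shallowest of 4 depth classes of myeloid cells and 4.43% of the deepest, while in the Atf4 Δ/Δ library they made 2.43% and 1.64%. The number that reached 2000 UMIs was 19 in the Atf4 WT/WT and 10 in the Atf4 Δ/Δ library.

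The myeloid label was checked on 15 myeloid genes outside the rule, among them Lyz2, Cd68, Csf1r and Ptprc. At least 5 of them were seen in 29 of 33 Atf4 WT/WT cells and 24 of 29 Atf4 Δ/Δ cells, against 4.18% and 1.94% of the cells with melanoma signal. The data went against the label for some cells. Of the 62 cells, 6 carried 3 or more markers of endothelial cells or of fibroblasts. In the Atf4 WT/WT library these were 4 cells with 4 to 8 of 8 endothelial markers, and 3 of them had at most 1 of the 15 myeloid genes and at most 2 UMIs of Tyrobp and Fcer1g. They were deep, with 2625, 5799, 15071 and 19309 UMIs, and held 37.7% of all UMIs of the Atf4 WT/WT cells. In the Atf4 Δ/Δ library 2 cells had 3 and 5 of 8 fibroblast markers and held 10.8% of the UMIs. Values are for all 62 cells unless the 56 without such markers (29 and 27) are named, for which the same limit was applied to the other myeloid cells. Scrublet, which scores likely doublets, marked 1 of the 62 cells. UMIs of the 4 pigment genes occurred in 84.8% and 82.8% of the selected cells and in 81.8% and 71.4% of the other myeloid cells.

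**Figure D1:**
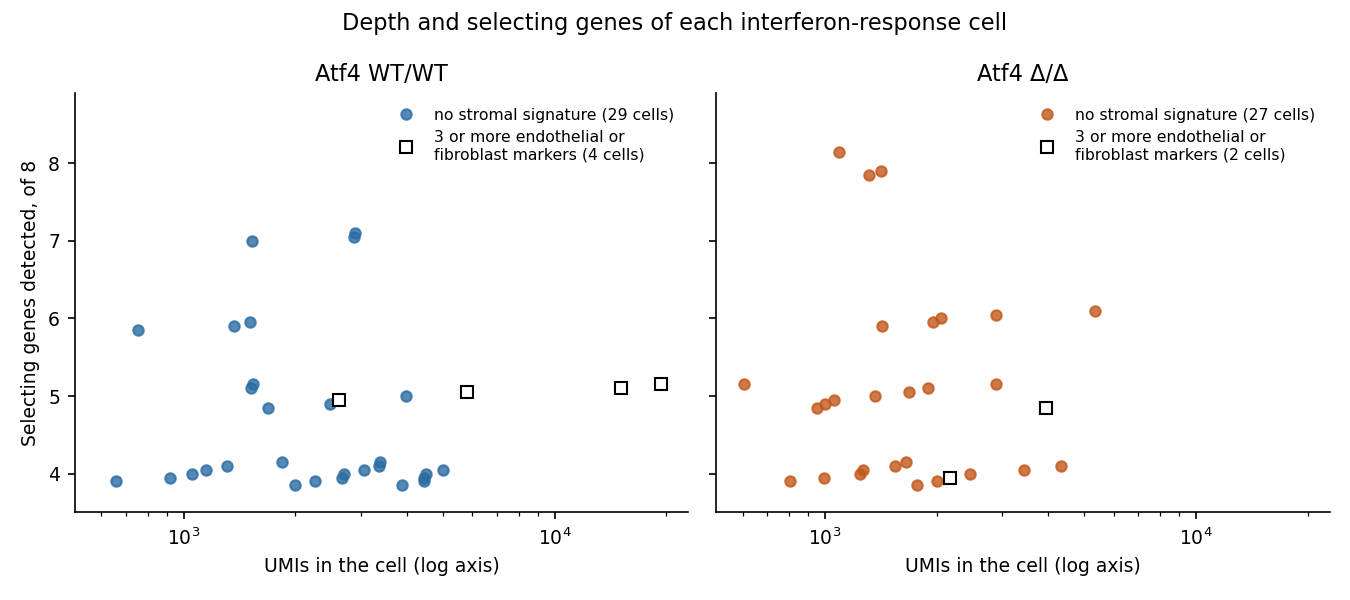
Each point is 1 interferon-response cell, with its UMIs on a log axis and the number of the 8 selecting genes it showed, spread slightly in height so that points can be seen. Open squares are the 6 cells with 3 or more endothelial or fibroblast markers, and those of the Atf4 WT/WT library include the 2 deepest cells, at 15071 and 19309 UMIs.

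The 8 selecting genes cover several roles, and their values are given first as a description of what was chosen. Ratios are log2 ratios of selected to other myeloid cells of the same library. Rsad2 encodes viperin, an enzyme that makes a chain-terminating nucleotide, and had 1153 CPM in the Atf4 WT/WT cells against 31.2 in the other myeloid cells of that library. In the Atf4 Δ/Δ library Rsad2 had 3252 CPM against 101. Ifit1 and Ifit3, which encode proteins that bind foreign RNA, had log2 ratios of 5.24 and 4.03 in the Atf4 WT/WT library and 5.67 and 5.13 in the Atf4 Δ/Δ library. The ubiquitin-like modifier Isg15 had 748 CPM against 81.9, and 1820.3 against 104. Cxcl10, a chemokine that attracts activated T cells, had 1276 CPM against 107 in the Atf4 WT/WT library, and its log2 ratios were 3.58 and 4.59. Irf7, a transcription factor that amplifies type I interferon, had ratios of 2.70 and 3.17. The GTPase gene Gbp2 had 3.99 and 4.26, and Slfn4, a Schlafen gene of monocytes and macrophages, had 2.73 and 3.96. In the 56 cells the 8 ratios ran from 3.29 to 5.61 and from 3.21 to 5.77.

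No selecting gene was seen in every cell. Isg15 was seen in 56 of 62 cells, Rsad2 in 50, Irf7 in 44, Ifit1 in 40, Cxcl10 in 39, Ifit3 in 34, Gbp2 in 26 and Slfn4 in 14. The most frequent pair was Rsad2 with Isg15, seen together in 46 cells, and the least frequent was Slfn4 with Gbp2, in 5 cells. The selecting genes took a median of 0.495% of a cell's UMIs (0.067% to 2.55%) in the Atf4 WT/WT library and 0.786% (0.202% to 6.78%) in the Atf4 Δ/Δ library. None of the Atf4 WT/WT cells had all 8 genes, 3 had 7 and 3 had 6. In the Atf4 Δ/Δ library 3 cells had all 8 genes and 5 had 6.

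**Figure D2:**
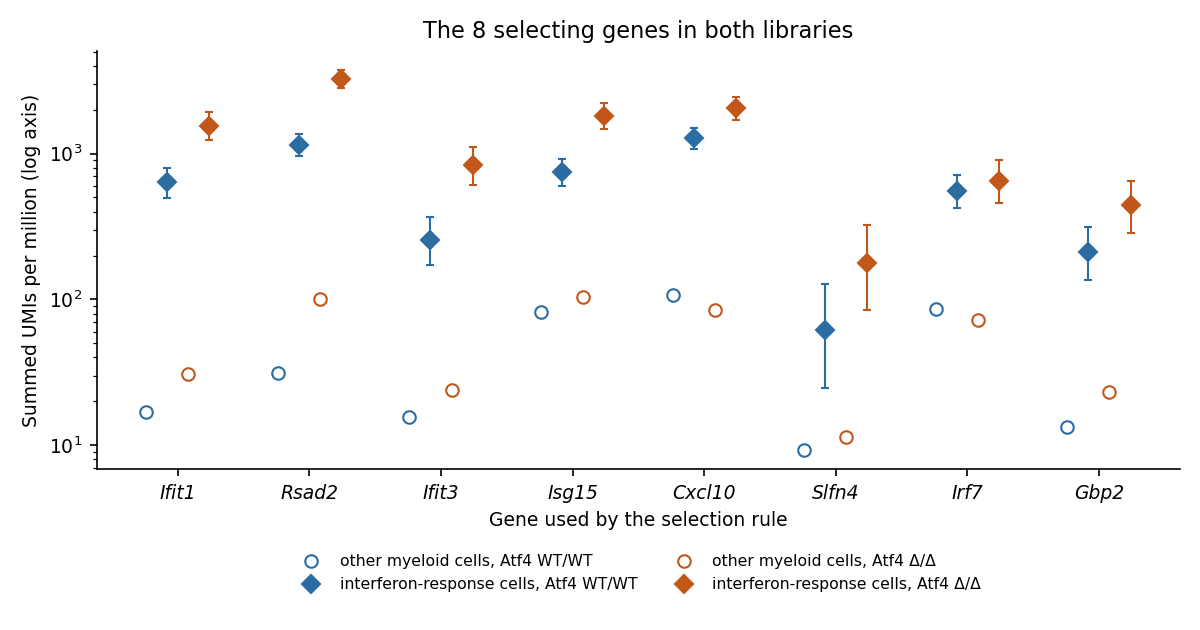
Summed CPM, on a log axis, of the 8 genes that the rule used, in the interferon-response cells (diamonds, with exact Poisson intervals) and the other myeloid cells (open circles) of each library. The distance between diamonds and circles was set by the selection, and all 8 diamonds are higher in the Atf4 Δ/Δ library, for instance 3252 against 1153 for Rsad2.

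The promoters of these genes carry the letters of the ISRE more often than promoters at large. RefSeq promoter windows (GRCm38.p6, 250 bases before to 50 after a listed start) were searched on both strands for the ISRE core, a pair of GAAA copies with 2 bases between them, for TTCNNNGAA, the GAS core, and for TGATGNAA, the letters of ATF4 composite sites. The ISRE letters were found for 6 of the 8 selecting genes and in 3.44% of all 32851 promoters. GAS letters were found for none of the 8 and in 8.3% of all promoters, and ATF4 letters for none of the 8 and in 3.97%. Matches may overlap, and a match describes the sequence and not a bound site. The 4 promoters shown belong to the selecting genes that hold a match and had the most UMIs in the selected cells, with the ISRE letters in capitals, read 5′ to 3′ along the gene's strand.
Rsad2, chr12:26456403-26456702, minus strand: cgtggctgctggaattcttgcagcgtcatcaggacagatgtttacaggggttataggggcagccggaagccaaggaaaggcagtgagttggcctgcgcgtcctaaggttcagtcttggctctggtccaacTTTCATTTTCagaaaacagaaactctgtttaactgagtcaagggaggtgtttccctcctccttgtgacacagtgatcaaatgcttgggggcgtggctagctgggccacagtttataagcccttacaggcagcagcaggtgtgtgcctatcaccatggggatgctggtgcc
Isg15, chr4:156200769-156201068, minus strand: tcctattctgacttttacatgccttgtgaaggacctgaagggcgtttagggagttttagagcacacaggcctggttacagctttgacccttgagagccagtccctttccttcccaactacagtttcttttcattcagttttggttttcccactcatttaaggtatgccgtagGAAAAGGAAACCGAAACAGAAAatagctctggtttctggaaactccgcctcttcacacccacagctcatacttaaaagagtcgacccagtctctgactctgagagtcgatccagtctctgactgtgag
Cxcl10, chr5:92348840-92349139, minus strand: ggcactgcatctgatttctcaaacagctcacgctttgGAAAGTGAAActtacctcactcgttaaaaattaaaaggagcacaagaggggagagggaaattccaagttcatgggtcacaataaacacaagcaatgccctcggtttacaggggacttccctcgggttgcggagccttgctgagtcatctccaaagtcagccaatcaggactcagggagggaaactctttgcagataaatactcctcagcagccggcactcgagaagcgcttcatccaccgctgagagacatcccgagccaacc
Ifit1, chr19:34640639-34640938, plus strand: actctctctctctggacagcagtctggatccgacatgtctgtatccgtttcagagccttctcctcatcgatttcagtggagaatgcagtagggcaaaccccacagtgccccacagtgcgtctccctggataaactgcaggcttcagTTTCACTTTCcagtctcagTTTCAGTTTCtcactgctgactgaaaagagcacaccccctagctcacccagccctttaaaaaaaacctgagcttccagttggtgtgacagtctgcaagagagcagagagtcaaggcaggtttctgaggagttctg
Isg15 held 3 overlapping matches centred 61, 67 and 73 bases before its start. Ifit1 held 2 matches, 80 and 99 bases before its start, Rsad2 held 1 at 115 bases and Cxcl10 held 1 at 208 bases. No match was found in the windows of Irf7 and Slfn4.

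Interferon genes that the rule did not read were examined next. Lists of such genes, ordered by role, held 148 genes, of which 115 had a mean of at least 20 CPM over the 4 sums and were compared. A gene was called higher or lower in the selected cells when its summed level differed at least 2-fold from that in other myeloid cells, in the same direction, in both libraries. Since those cells were chosen by genes of the same response, the counts are descriptions and no test was run. Of 5520 genes compared, 177 (3.21%) were higher and 68 (1.23%) were lower by this measure. Both intervals lay above 0 for 74 (1.34%) and below 0 for 14 (0.254%). Leaving out the selecting and limiting genes, 169 (3.07%) of 5499 were higher and 64 (1.16%) lower. In the 56 cells 215 (4.05%) of 5305 were higher and 78 (1.47%) lower, and 112 (2.03%) and 30 (0.543%) were called the same way in both sets. The balance depended on scaling. With TMM factors 107 genes were higher and 185 lower, and with median-of-ratios factors 153 were higher and 104 lower, as TMM lowered every ratio by 0.27 on the log2 scale and median-of-ratios lowered them by 0.06 and 0.14. Of the 115 interferon genes 48 were higher and none was lower. With TMM factors 39 of 114 were higher. Their median log2 ratio was 0.91 in the Atf4 WT/WT library and 1.54 in the Atf4 Δ/Δ library, beside medians of 0.04 and 0.00 over all genes outside the rule, the 0.00 being a value given to genes at 0 UMIs. Among the 56 cells 56 of 115 were higher, with medians of 1.22 and 1.63. Some of the 115 reached 20 CPM only through the selected cells, and such a gene had to differ, so the counts were repeated for genes with at least 20 CPM in the other myeloid cells of both libraries. Of 5053 such genes 63 (1.25%) were higher and 67 (1.33%) lower, and of the 83 interferon genes among them 29 were higher and none was lower, with medians of 0.59 and 1.08. Of the 48 higher genes 37 had a promoter window, and ISRE letters stood in that of 20. They also stood in a promoter of 16 of the 52 that were compared but not higher, against 3.99% of all genes. GAS letters stood in a promoter of 7 of those 37 and 12 of those 52, against 9.55% of all genes. Both sets were formed with the mean of 20 CPM over the 4 sums. The 37 thus hold genes that reached 20 CPM only through the selected cells, and no motif count was made for the 29.

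**Figure D3:**
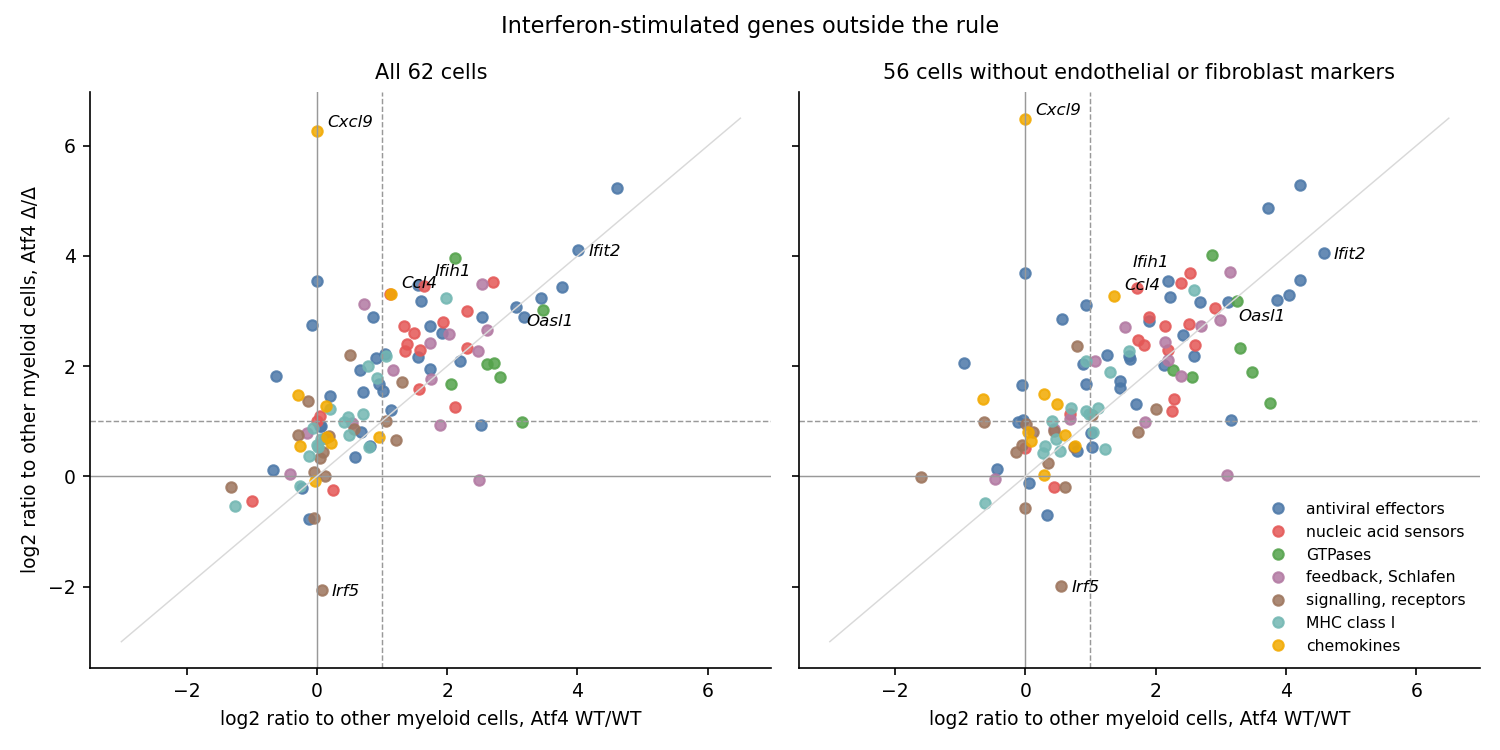
Log2 ratio of interferon-response cells to other myeloid cells for each compared interferon-stimulated gene outside the rule, in the Atf4 WT/WT library (horizontal) and the Atf4 Δ/Δ library (vertical), for all 62 cells and for the 56 cells without endothelial or fibroblast markers. Dashed lines mark 2-fold, colours give the role lists, a gene at 0 UMIs whose bound falls on the other side of 0 is drawn at 0, and more genes lie past 2-fold on both axes in the right panel (56) than in the left (48).

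The antiviral effectors held 36 compared genes, of which 17 were higher in both libraries, as were 10 of the 23 with at least 20 CPM in the other myeloid cells and 21 of 37 in the 56 cells. Ifit2, a further member of the Ifit family, had 158 CPM against 9.83 in the Atf4 WT/WT library and 371 against 21.5 in the Atf4 Δ/Δ library. Its log2 ratios were 4.01 (3.1 to 4.87) and 4.11 (3.31 to 4.85), so that the 2 libraries lay within each other's intervals. Cmpk2, a mitochondrial nucleotide kinase gene next to Rsad2, had 106 against 7.81 and 159 against 14.7. Mx1, which encodes a dynamin-like GTPase that blocks influenza virus, had 10 UMIs in 10 cells and 5 UMIs in 5 cells, with log2 ratios of 3.44 and 3.23. Ifit3b, a near copy of Ifit3, had 4 and 8 UMIs and ratios of 4.61 and 5.23, and reads of these close copies may have been split between them. Oasl1, a 2-5A synthetase-like gene that limits Irf7 translation, had 246 CPM against 29.5 and 318 against 37.7, with log2 ratios of 3.06 and 3.08. Ms4a4c, a membrane protein gene of monocytes, had 466 against 154 and 742 against 81.5. Ly6a, which encodes Sca-1, had 449 against 77.8 and 707 against 95.5, in 8 cells of each library. Rtp4, an interferon-induced transporter protein gene, had ratios of 1.73 and 2.73.

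Several abundant effectors lay under 2-fold. Ifitm3, which blocks virus entry and was seen in 33 of 33 and 27 of 29 cells, had 2728 CPM against 1702 in the Atf4 WT/WT library and 3057 against 1753 in the Atf4 Δ/Δ library. Its ratios of 0.68 (0.51 to 0.85) and 0.80 (0.58 to 1.02) were above 0 and under 2-fold. Ifi27l2a had ratios of -0.13 and -0.77, and Ifitm2 of -0.68 and 0.11. Ly6e, a membrane protein gene with antiviral activity, had 0.81 and 0.55. Bst2, which encodes tetherin, had 0.71 and 1.53, Samhd1, a nucleotide hydrolase gene, 0.96 and 1.68, and Shisa5 0.59 and 0.34, so none of these 3 passed 2-fold in both libraries.

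Of the nucleic acid sensors 13 of 17 compared genes were higher in both libraries and none was lower. The count was 12 of the 16 with at least 20 CPM in the other myeloid cells and 13 of 16 in the 56 cells. Ifih1, which encodes the RNA sensor MDA5, had 141 CPM against 21.7 and 247 against 21.5. Its log2 ratios were 2.70 (1.82 to 3.49) and 3.52 (2.57 to 4.39). Zbp1, a sensor of Z-form nucleic acid, had 202 against 52.6 and 389 against 55.5, with ratios of 1.94 and 2.81. Ifi204, of the PYHIN family that binds DNA, had 387 CPM against 130 and 636 against 130, with ratios of 1.58 and 2.29. Its relative Ifi209 had 194 CPM against 39.1 and 230 against 28.7. Ifi213 had 11 and 8 UMIs and ratios of 3.80 and 4.09. Daxx, a chromatin protein gene induced by interferon, had 2.31 and 2.33. Ifi207 was the abundant member that stood apart, at 264 against 254 CPM in the Atf4 WT/WT library (ratio 0.06) and 583 against 272 in the Atf4 Δ/Δ library (ratio 1.10). The PYHIN genes are close copies, and reads may have been divided among them.

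Interferon-inducible GTPases attack membranes of intracellular pathogens, and 6 of 7 compared genes were higher in both libraries. All but Ifi47 were under 20 CPM in the other myeloid cells of at least 1 library. Gbp3 had 132 CPM against 11.9 and 88.4 against 10.9, with ratios of 3.48 and 3.01. Ifi47 had 22 UMIs in 13 Atf4 WT/WT cells and 7 UMIs in 6 Atf4 Δ/Δ cells, and ratios of 2.82 and 1.80. Gbp7 had 2.72 and 2.05, Igtp 2.61 and 2.05, Irgm1 2.07 and 1.68, and Irgm2, on 3 UMIs in each library, 2.12 and 3.96. Without the stromal-marked cells all 7 compared genes were higher. The median ratio was 2.72 in the Atf4 WT/WT library and 2.05 in the Atf4 Δ/Δ library.

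Of 8 compared genes of feedback and of Isg15 conjugation 5 were higher, in all cells and in the 56, but of the 3 with at least 20 CPM in the other myeloid cells only Usp25, a deubiquitinase gene, was. Usp18, which removes Isg15 from proteins and blocks the receptor, had 70.4 CPM against 12.1 and 124 against 10.9, from 8 and 7 UMIs. Herc6, the mouse ligase for Isg15, had 2.61 and 2.66, Ube2l6, its conjugating enzyme, 1.74 and 2.42, and Uba7, its activating enzyme, 2.47 and 2.28 on 4 and 3 UMIs. Socs3, a suppressor of cytokine signalling that acts on several cytokine receptors, had -0.42 and 0.05. Among the Schlafen genes 2 of 5 were higher (3 of 5 in the 56 cells), with Slfn5 at 308 against 75.2 and 442 against 74.0 CPM, and Slfn1 at ratios of 1.76 and 1.77. The abundant Slfn2 had -0.14 and 0.79.

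Of 11 compared signalling genes 2 were higher, as many as in the 56 cells. Of the 10 with at least 20 CPM in the other myeloid cells of both libraries only 1 was. The 2 genes were Stat2, with ratios of 1.31 and 1.71 on 4 and 3 UMIs, and Nmi. Nmi, which binds STAT proteins, had 1.06 and 1.01 on 8 and 3 UMIs. The kinase gene Jak1 had -0.04 and 0.09, and the factor Irf8 had 0.13 and 0.01. None of the 5 receptor genes compared passed 2-fold, with or without the stromal-marked cells. Ifnar1 had ratios of 0.09 and 0.44, Ifnar2 0.04 and 0.34, and Ifngr1 -0.04 and -0.75.

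Interferon transcripts themselves were at the limit of detection. Of 21 ligand genes none was abundant enough to be compared. Ifnb1, the interferon beta gene, gave 1 UMI in 1 of the 33 Atf4 WT/WT cells and 1 UMI in 1 of the 29 Atf4 Δ/Δ cells. Over all 7418 cells Ifnb1 gave 3 UMIs in 3 Atf4 WT/WT cells and 5 UMIs in 3 Atf4 Δ/Δ cells. Ifng, made by T and NK cells, gave 4 UMIs in the Atf4 WT/WT library and none in the Atf4 Δ/Δ library, and none in the selected cells of either. These counts were too low at this depth to compare cell groups.

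Chemokines and interferon-linked cytokines were mixed, with 1 of 9 compared genes higher in both libraries and 1 of 10 in the 56 cells. That gene was Ccl4, a chemokine gene of activated macrophages. It had 880.1 CPM against 401 in the Atf4 WT/WT library (ratio 1.13, 0.83 to 1.43) and 4118 against 417 in the Atf4 Δ/Δ library (ratio 3.30, 3.09 to 3.51). Cxcl9, a partner of Cxcl10 that responds to interferon gamma, had 0 UMIs in the Atf4 WT/WT cells and 36 UMIs in 2 Atf4 Δ/Δ cells. The monocyte attractants Ccl2 and Ccl7 had ratios of -0.03 and -0.25 in the Atf4 WT/WT library and of -0.08 and 0.56 in the Atf4 Δ/Δ library. Ccl12 had 0.15 and 0.72. Il1rn, the interleukin 1 receptor antagonist gene, had -0.29 and 1.48.

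Of 17 compared class I genes 2 were higher, H2-T22 with ratios of 1.06 and 2.19 and the class I transactivator gene Nlrc5 with 1.99 and 3.23 on 3 UMIs in each library. Of the 14 with at least 20 CPM in the other myeloid cells of both libraries only 1 was higher. B2m, the light chain of class I, had 0.06 and 0.67, H2-K1 -0.13 and 0.38, and H2-D1 0.02 and 0.53. The class I list depended on the stromal-marked cells. In all cells its summed ratios were 0.12 (0.02 to 0.23) and 0.69 (0.54 to 0.83), and in the 56 they were 0.52 (0.40 to 0.63) and 0.72 (0.57 to 0.86), with 4 of 16 genes higher and medians of 0.93 and 1.07. None of the 7 class II genes passed 2-fold in both libraries, nor any of 8 in the 56 cells, with Cd74 at -0.30 and 0.87. For the checkpoint ligand gene Cd274, which encodes PD-L1, 4 and 9 UMIs gave ratios of 0.40 and 2.34. Without the stromal-marked cells Cd274 had 1.01 and 2.40 and was called higher, as was Cd40 with 1.41 and 2.31.

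None of the 12 compared inflammatory genes, which included Il1b, Tnf and Cxcl2, passed 2-fold in both libraries, and the median ratios were -0.48 and 0.24, against -0.15 and 0.20 in the 56 cells, where none passed either. Il1b had 431 CPM against 933 in the Atf4 WT/WT library and 1060.4 against 818 in the Atf4 Δ/Δ library. Cxcl2 had ratios of -0.49 and -0.12. ATF4 target genes had 0 of 22 higher and 0 lower, with summed ratios of 0.11 (-0.05 to 0.27) and 0.06 (-0.16 to 0.27), and 1 of 20 was higher in the 56 cells. Over all genes outside the rule 3.07% were higher and 1.16% lower, so counts of 0 in lists this short do not set them apart. The same holds for the counts of 0 among receptor and class II genes.

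At least 2 macrophage markers were seen in 26 selected cells of each library. Of 16 compared markers none was higher and 2 were lower, beside 1.16% lower over all genes outside the rule. The 2 were Gas6, with ratios of -1.84 and -1.26, and Mrc1, the mannose receptor gene, with -1.13 and -1.13. Without the stromal-marked cells Gas6 alone was lower, with -1.79 and -1.16. F13a1, a gene of infiltrating monocytes and some resident macrophages, had 150 CPM against 477 and 406 against 1089. Cells with more than 2 of the resident-macrophage genes could not be selected but stayed among the other myeloid cells. Genes that go with those cells can thus be lower by the rule alone. For Gas6, Mrc1 and F13a1 this was not tested. The complement gene C1qb had -0.41 and 0.01, and Apoe -0.99 and 0.09. Plac8, of classical monocytes, had 0.47 and 1.83.

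By a fixed order of marker gates, 35 of the 62 cells were C1q-positive, with at least 2 of C1qa, C1qb and C1qc. These were 17 of 826 C1q-positive cells (2.06%, 1.20 to 3.28) in the Atf4 WT/WT library and 18 of 687 (2.62%, 1.56 to 4.11) in the Atf4 Δ/Δ library. The Ly6c2 gate of monocyte-like cells held 4 of 169 (2.37%) and 4 of 77 (5.2%). The neutrophil gate held 2 of 12 and 3 of 38, together 10% of 50 cells (3.33 to 21.8), the dendritic gate 2 of 84 and 0 of 20, and the plasmacytoid gate 0 of 35 and 1 of 18. Among T and NK gated cells there were 0 of 42, which allows up to 8.41%. The remaining cells, with none of these marker sets, held 8 of 483 and 3 of 314. Intervals of all gates with members overlapped those of the C1q-positive gate, except that of the neutrophil gate over both libraries, which lay above it and rested on 5 cells. Of these 5 cells 1 was a stromal-marked Atf4 Δ/Δ cell. Without stromal-marked cells the neutrophil gate held 2 selected and 9 other cells in the Atf4 WT/WT library, and 2 and 35 in the Atf4 Δ/Δ library. No interval was computed for these counts.

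The comparison was also made within the C1q-positive gate, without cells with endothelial or fibroblast markers. With 16 and 17 selected cells against 799 and 659 others and the mean of 20 CPM over the 4 sums, 45 of 111 compared interferon genes were higher and none was lower, beside 5.21% higher and 1.45% lower of all 5295 genes. Here too some genes reached 20 CPM only through the selected cells and so had to differ. Gbp3, for instance, had 12.7 and 13.2 CPM in the others, and Ifi213 had 7.5 and 10.8. No count for genes with 20 CPM in the others is given for this gate. Oasl1 had ratios of 2.90 and 2.48 there, Ifih1 2.25 and 3.24, Zbp1 2.37 and 2.21, Ms4a4c 3.03 and 2.89, and Slfn5 2.53 and 2.53. The 68 effector, GTPase and feedback genes outside the rule together had 14225 CPM in the selected C1q-positive cells against 8207 in the others of the Atf4 WT/WT library, and 13241 against 9889 in the Atf4 Δ/Δ library. The 4 selected cells of the Ly6c2 gate had 26350 against 14369 and, in the other library, 27345 against 11159.

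The interferon genes outside the rule varied by degree across myeloid cells. When each cell was thinned to 2000 UMIs, the share of UMIs in those 68 genes rose from 0.689% in 410 Atf4 WT/WT cells with no selecting gene to 0.809%, 1.04%, 1.44% and 1.56% in cells with 1, 2, 3 and 4. In 5 cells with 5 or more it was 1.34% (1.12 to 1.59). In the Atf4 Δ/Δ library the shares were 0.813%, 1.12%, 1.31%, 1.48% and 1.49%, and 2.02% (1.75 to 2.32) in 5 cells with 5 or more. Cells that met the whole rule at this depth, Arg1 and resident limits included, had 1.23% (1.07 to 1.40) in 9 Atf4 WT/WT cells and 0.925% (0.761 to 1.11) in 6 Atf4 Δ/Δ cells, the latter below the 1.12% of cells with 1 selecting gene. Cells just inside the limit, with exactly 4 selecting genes, had 1.37% in 18 Atf4 WT/WT cells and 1.55% in 12 Atf4 Δ/Δ cells at full depth. Cells just outside, with 3 such genes and otherwise alike, had 1.46% in 26 cells and 0.653% in 17 cells. Myeloid cells that had 4 or more selecting genes but were left out for Arg1 or resident genes had 1.89% in 10 cells and 2.14% in 19 cells, above the 1.29% and 1.53% of the selected cells. Abundant effectors weighed in this share, Ifitm3 giving 310 and Ifi27l2a 265 of its 1468 UMIs in the selected Atf4 WT/WT cells. In the selected Atf4 Δ/Δ cells they gave 173 and 92 of 864. The share also differed by gate among other myeloid cells, and the part of the gate mix was not tested.

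**Figure D4:**
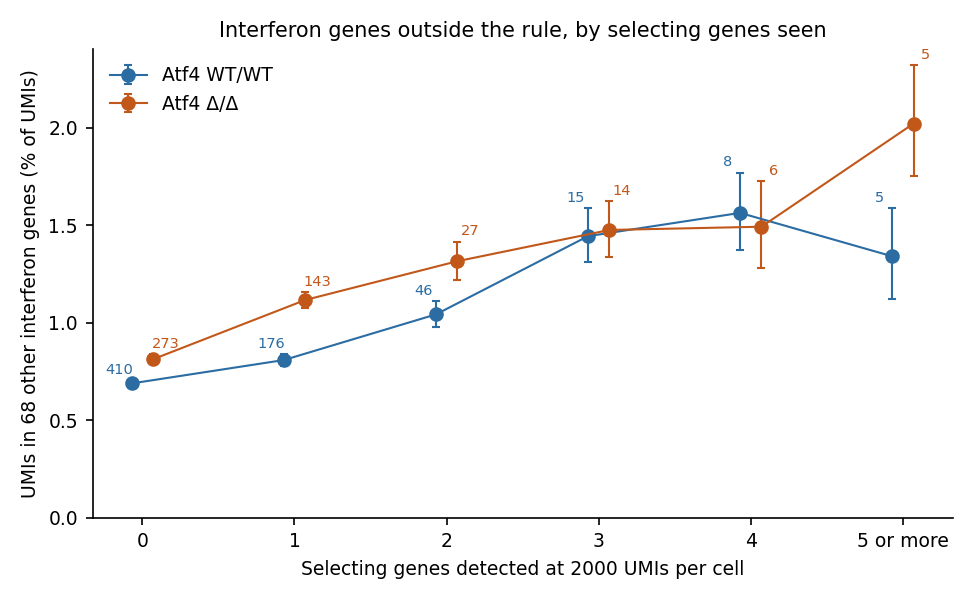
Share of UMIs in 68 interferon genes outside the rule among myeloid cells thinned to 2000 UMIs, by the number of selecting genes detected at that depth, for each library, with exact Poisson intervals and the number of cells at each point. The share rises from 0.689% and 0.813% in cells with none to 1.44% and 1.48% in cells with 3, and the points at 4 and above rest on 5 to 8 cells.

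The genes whose level followed the number of selecting genes most closely across thinned myeloid cells were Ifitm3, Ly6e, Plac8, B2m and Phf11b. The rank correlation, taken as the lower of the 2 libraries, was 0.22 for Ifitm3 and 0.16 to 0.18 for the others, over 660 and 468 cells that shared library and depth. These are weak values in sparse counts. Phf11b, an interferon-induced gene of the Phf11 family, had ratios of 1.49 and 4.14 in the selected cells.

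The 15 compared genes outside the rule whose smaller ratio was highest included Ifit3b, Ifit2, Ifi213, Cmpk2, Mx1, Ifi206, Phf11a, Oasl1, Gbp3, Isg20 and Phf11d. Of these Oasl1 alone had 20 CPM in the other myeloid cells of both libraries, and a gene that reached the limit through the selected cells had to differ. Isg20, which encodes an RNA-degrading exonuclease, had 11 and 7 UMIs and ratios of 3.18 and 2.90. The other 4, Nsg1, Tgfbr3, Ehd2 and Jcad, were not called higher without the stromal-marked cells. Ehd2, for instance, had 20 and 5 UMIs in 2 cells of each library, of which 18 and 4 came from 1 cell. The 10 genes whose larger ratio was lowest were Npl, Bgn, Stard8, Tceal8, Wdfy3, Enpp1, Arrb2, Bptf, Trps1 and Hspa1b, each on at most 4 UMIs in a library. Npl, which encodes an enzyme of sialic acid breakdown, had ratios of -1.69 and -2.72, and Stard8 had -2.62 and -2.50.

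The host genotypes were compared first by share. The interferon-response cells made 2.01% of myeloid cells (1.39 to 2.81) in the Atf4 WT/WT library and 2.5% (1.68 to 3.57) in the Atf4 Δ/Δ library. The log2 ratio of 0.32 had an interval from -0.46 to 1.08, so no difference was detectable at this depth. Without the 6 stromal-marked cells it was 0.41 (-0.40 to 1.22). After thinning to 2000 UMIs 9 of 660 and 6 of 468 cells met the rule, a ratio of -0.09 (-1.86 to 1.56). Among cells with 6 or more selecting genes there were 6 and 8. When the limits on Arg1 and resident genes were dropped, 43 (2.62%) and 48 (4.13%) myeloid cells had 4 or more selecting genes, a log2 ratio of 0.66 (0.04 to 1.29). Cells left out for Arg1 numbered 5 and 12, and those left out for resident genes 5 and 7. After thinning, which also left out cells under 2000 UMIs, 13 of 660 and 11 of 468 cells had 4 or more genes, a ratio of 0.25 (-1.05 to 1.53).

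Within the selected cells 493 genes had at least 50 UMIs over both libraries, and 34 (6.9%) were at least 2-fold higher and 30 (6.09%) at least 2-fold lower in the Atf4 Δ/Δ cells with an interval off 0. Without the 6 stromal-marked cells 12 (3.21%) of 374 were higher and 9 (2.41%) lower, and 11 (2.23%) and 4 (0.811%) genes were called the same way in both sets. The endothelial markers as a list gave 195 UMIs in the Atf4 WT/WT cells (1716 CPM, 8 of 8 genes seen) and 1 UMI in the Atf4 Δ/Δ cells, while fibroblast markers gave 1743 and 4171 CPM. Fabp4, a fatty acid binding protein gene of capillary endothelium and some macrophages, fell by 4.31 on the log2 scale from the Atf4 WT/WT to the Atf4 Δ/Δ cells. Of its 517 Atf4 WT/WT UMIs 223 came from 1 cell, and in the 56 cells the ratio was -0.20. Igfbp3 had 146 UMIs, all in 1 Atf4 WT/WT cell, and Igfbp7, Col4a1, Col4a2 and Ctla2a each had at most 1 UMI per library in the 56 cells. In the other direction 104 of the 108 Col3a1 UMIs and 46 of the 48 Col1a2 UMIs of the Atf4 Δ/Δ cells came from 1 cell each.

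Between genotypes Ccl4 had 880.1 CPM in the Atf4 WT/WT cells and 4118 in the Atf4 Δ/Δ cells, a log2 ratio of 2.23 (1.88 to 2.58), and 2.01 (1.63 to 2.41) in the 56 cells. It was seen in 15 of 33 and 20 of 29 cells, and the highest single cells gave 35 and 42 UMIs. In other myeloid cells Ccl4 stood at 401 and 417 CPM, a ratio of 0.06. Ccl12, a monocyte attractant, had 361 and 1485 CPM, ratios of 2.04 in all cells and 1.66 in the 56, but was also higher in other Atf4 Δ/Δ myeloid cells, by 1.47. Ccl8, which the rule limited, had 2.61 and 2.51, beside 1.14 in other myeloid cells. Il1rn had 1.77 (1.06 to 2.52) and 1.25 (0.52 to 2.01), and Thbs1, the matricellular thrombospondin gene, 1.91 and 1.46. Hmox1, which encodes heme oxygenase 1, had 2.13 and 1.96, and 32 of its 48 UMIs in the Atf4 Δ/Δ cells came from 1 cell. Retnla, a gene of alternatively activated macrophages, had 75 UMIs in 4 Atf4 WT/WT cells, of which 46 came from 1 cell, and 1 UMI in the Atf4 Δ/Δ cells. Xist had 83 and 3 UMIs. None of these differences has a replicate behind it.

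**Figure D5:**
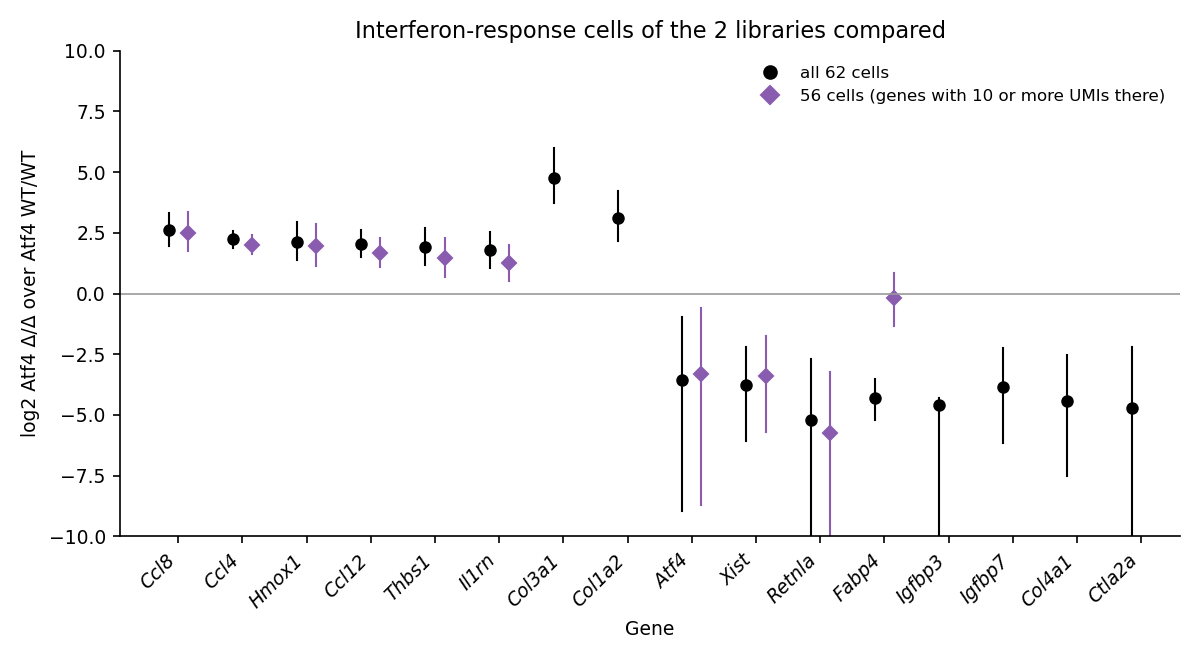
Log2 ratio of the Atf4 Δ/Δ to the Atf4 WT/WT interferon-response cells, with exact intervals drawn within -10 and 10, for Atf4 and the genes with the largest ratios that are shown, in all 62 cells and in the 56 without endothelial or fibroblast markers. A gene at 0 UMIs (Igfbp3 in the Atf4 Δ/Δ cells) is drawn at the bound from 3 UMIs, and Fabp4 moves from -4.31 to -0.20 while Ccl4 moves from 2.23 to 2.01.

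For interferon genes outside the rule with at least 50 UMIs the median log2 ratio of Atf4 Δ/Δ to Atf4 WT/WT was 0.52 over 25 genes in all cells and 0.07 over 22 genes in the 56, beside -0.02 and -0.01 over all genes. Without the stromal-marked cells the summed antiviral effectors had a ratio of -0.02 (-0.16 to 0.11), the sensors 0.35 (0.07 to 0.62), the feedback genes 0.11 (-0.52 to 0.73), the Schlafen genes 0.04 (-0.42 to 0.50) and the GTPases -0.75 (-1.40 to -0.12). The class I genes had -0.25 (-0.44 to -0.07). The interferon-linked chemokines, with Ccl4 among them, had 1.01 (0.82 to 1.19). The 8 selecting genes summed to a ratio of 0.97 (0.79 to 1.16), in cells chosen by those genes, whose median depths without the stromal-marked cells were 2268 UMIs (Atf4 WT/WT) and 1542 UMIs (Atf4 Δ/Δ). The part of depth in that ratio was not tested.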

How the data were processed

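Single-cell RNA-seq libraries of dissociated small B16F10 tumours were measured, 1 from Atf4 WT/WT and 1 from Atf4 Δ/Δ hosts. The authors' deposited matrices hold UMI counts per gene and barcode, not normalized. The submitters' processing notes name Cell Ranger 3.1.0, Seurat 3.2.1 and GRCm38. The labels and the study's methods name different versions of the droplet kit.

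Cells were filtered and selected as described in the report, and no barcode column of another sample was used. Raw counts were summed over selected cells and over other myeloid cells of each library and scaled to CPM. Genes with a mean of at least 20 CPM over the 4 sums were compared, and between genotypes genes with at least 50 UMIs. A gene at 0 was set at a floor of 3 UMIs of its group. Where this gave a bound of the wrong sign the ratio was set to 0. Intervals were exact Poisson, Clopper-Pearson or conditional binomial 95% intervals and cover counting error only. Depth was 113625 and 56584 UMIs over the selected cells. With 1 library for each genotype no test was run.

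For depth, cells were thinned to 2000 UMIs (seed 1), leaving out shallower cells (14 selected and 953 other myeloid cells in the Atf4 WT/WT library, 19 and 644 in the Atf4 Δ/Δ library), and the rule was applied again. Doublets were kept, and Scrublet in scanpy 1.11.5 gave an alternative. Scripts used Python 3.11.15, numpy 2.4.6, scipy 1.17.1, pandas 2.3.3, R 4.3.3, edgeR 4.0.16 and DESeq2 1.42.0, the last 2 for scaling factors alone, and were tested on simulated data. Promoter sequences are from RefSeq, GRCm38.p6.

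Genes were named by rule: the selecting genes, in each list the 4 with the most UMIs in the selected cells (12 for antiviral effectors) and the 4 largest past 2-fold, the 15 highest and 10 lowest outside the rule, the 8 largest ratios each way between genotypes, Atf4, Xist, and the 5 genes most like the state. A gene without a ratio in both libraries was not ranked. The members and lists were chosen with earlier results of these data known. Genes named beyond the rule were chosen after their values were seen, as were the alternatives without stromal-marked cells, within the C1q-positive gate, without cells over 6000 UMIs, without the Arg1 and resident limits and with 20 CPM in the other myeloid cells. A gene of the signalling list is not reported here.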

Additional observations from a re-analysis of the deposited data

Results flagged for a closer look

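Of 180 named genes compared in the interferon-response cells, 9 lay on opposite sides of the other myeloid cells in the 2 libraries, with both counting intervals off 0. Some named genes were picked for the largest ratios between genotypes in the same cells, Col3a1, Col1a2, Thbs1 and Retnla among them. The count of 9 is thus a description, and the share over all 5520 compared genes was not counted. The difference between libraries was not tested, since each genotype was 1 library. The collagen genes Col3a1, Col1a2 and Col1a1 had log2 ratios of -2.60, -1.87 and -2.45 in the Atf4 WT/WT library and of 2.21, 1.67 and 1.16 in the Atf4 Δ/Δ library. Of the Atf4 Δ/Δ UMIs, 104 of 108 for Col3a1 and 46 of 48 for Col1a2 came from 1 cell each. Retnla had 0.66 and -3.40, and the pigment gene Dct had 0.65 and -0.99. Thbs1 had -0.99 and 0.46, the class II chaperone gene Cd74 had -0.30 and 0.87, the protease gene Ctss had -0.30 and 0.34, and the adaptor gene Fcer1g had -0.28 and 0.38. Without the stromal-marked cells Fcer1g had 0.19 and 0.40 and Cd74 had 0.33 and 0.93, so these 2 no longer had opposite signs. The fibroblast markers, the 3 collagen genes among them, then summed to 42.4 CPM against 137 in the Atf4 WT/WT library. In the Atf4 Δ/Δ library they summed to 119 against 199. The summed log2 ratios were -1.70 (-3.98 to -0.14) and -0.75 (-2.20 to 0.39). The medians over the 3 compared markers were -1.32 and 0.96.

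Cells with melanoma signal, used in the report only to check the myeloid label, also showed the selecting genes. At least 4 of the 8 were seen in 12 of 1818 such cells (0.66%) in the Atf4 WT/WT library and 28 of 1802 (1.55%) in the Atf4 Δ/Δ library, a log2 ratio of 1.24 (0.21 to 2.35) that was not tested over replicates. Thinned to 2000 UMIs, 2 of 1673 and 4 of 1645 had 4 or more of these genes, a log2 ratio of 1.02 (-1.78 to 4.49) whose interval includes 0. Their median depths were 11367 and 10752.5 UMIs.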

How the results depend on the processing

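The share of interferon-response cells gave log2 ratios of Atf4 Δ/Δ to Atf4 WT/WT from -0.40 to 0.68 under the 13 alternatives, all inside the interval of the main value. The Atf4 ratio stayed below 0 under the 15 alternatives that gave a value (-4.46 to -0.97), with intervals that included 0 at 3 selecting genes (-0.97, -2.12 to 0.07) and within the C1q-positive gate (-2.46, -7.95 to 0.50), and none was had after thinning or with Xist-positive cells alone. Genes higher in the selected cells numbered 177, and 311 with 5 selecting genes, 342 after thinning, 50 with Xist-positive cells alone, 107 with TMM factors, 348 with no filter but 1 UMI, 63 with 20 CPM in other myeloid cells and 276 within the C1q-positive gate. Genes lower numbered 68, and 29 after thinning, 7 with Xist-positive cells alone, 185 with TMM, 104 with median-of-ratios factors and 155 by means over cells. Interferon genes higher numbered 48, and 31 after thinning, 11 with Xist-positive cells alone and 29 with 20 CPM in other myeloid cells. Between genotypes 34 genes were higher in the Atf4 Δ/Δ cells, and 6 after thinning, 21 by means over cells, 87 and 166 at minima of 20 and 1 UMIs, 12 without stromal-marked cells, 11 within the C1q-positive gate and 17 without cells over 6000 UMIs. There 30 were lower, and 11 after thinning, 7 with Xist-positive cells alone, 77 and 104 at those minima, 9 without stromal-marked cells, 4 within the C1q-positive gate and 15 without cells over 6000 UMIs. The causes were not tested. No paired analysis was possible because a genotype was a single library here, and no library could be left out.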
